A study of Mus musculus with 24 samples.

Results

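The glutathione transferases of primitive erythroid cells were described across mouse embryonic days E7.5 to E12.5, for 10 genes: Gsta4, Gstm1, Gstm2, Gstm5, Gstp1, Gsto1, Gstt1, Mgst1, Mgst2 and Mgst3. All probes annotated with these symbols were taken, 16 of the 45719 probes on the array, where 17583 gene symbols occur. The list was picked from these data after lower signals of Gsta4 and Gstm2 and higher signals of Mgst3 at later stages had been seen. The values of those 3 genes are therefore given as a description with no test, and of the other 7 tests are given for the 6 that passed a filter on detection, all but Mgst1.

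Primitive erythroid cells are the first red blood cells of the embryo, which arise in the yolk sac and enter the circulation. Every group came from embryos carrying a histone H2B-EGFP fusion driven by the human epsilon-globin promoter, and green cells were sorted by flow cytometry, so the transgene is common to all groups and its promoter defines the cells that were collected. Up to E9.5 the whole embryo was taken apart with collagenase before sorting, and from E10.5 on only embryonic blood was sorted. Each sample was a pool of embryos up to E10.5 and a single embryo at E11.5 and E12.5. RNA went to 24 Illumina bead arrays on 4 slides. With 2 rounds of amplification there were 3 arrays of E7.5 and 3 of E8.5, all on slide 1. With 1 round there were 6 arrays of E8.5, on slides 2 and 3, and 3 each of E9.5 on slide 2, E10.5 and E11.5 on slide 4, and E12.5 on slide 3. The change of tissue source falls between E9.5 and E10.5, where slides also change. Source, slide and stage therefore cannot be told apart in that comparison, and slide and stage cannot be told apart between E12.5 and E11.5. Between E12.5 and E8.5 source and pooling change with stage, also within slide 3. Between E11.5 and E10.5 pooling changes with stage. These cannot be told apart from stage in those comparisons either. The p-values cover the spread among the arrays of a stage and no more.

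Glutathione transferases join the tripeptide glutathione to reactive or oily molecules, which makes them easier to export, and several also reduce peroxides with it. The cytosolic enzymes fall into classes named by Greek letters, of which alpha (Gsta4), mu (Gstm1, Gstm2, Gstm5), pi (Gstp1), omega (Gsto1) and theta (Gstt1) are covered here. Mgst1, Mgst2 and Mgst3 belong to a separate family of membrane proteins. Red blood cells carry oxygen and iron at high concentration and hold much glutathione, which keeps hemoglobin and membranes reduced.

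The promoters of 3 genes are printed because their signals took different courses: Gstm2 and Gstm5 lie in a cluster of 7 mu-class genes that spans 149 kb of chromosome 3 while Mgst3 was the gene whose signal was higher at later stages. Sequences are from RefSeq on GRCm38.p6, from 250 bases before to 50 after the annotated start, and 9 of the 10 genes were matched there, Gsta4 being named only. Capitals mark matches on either strand to CCNCNCCC, a short form of the motif of erythroid KLF factors, or to TGACNNNGC, the antioxidant response element read by CNC and small MAF factors. The third motif searched, that of the erythroid factor Gata1, was AGATAA. The matches shown do not overlap each other. The Mgst3 window is chr1:167393792-167394091 on the minus strand, that of Gstm5 is chr3:107895604-107895903 on the plus strand, and that of Gstm2 is chr3:107986371-107986670 on the minus strand.
Mgst3: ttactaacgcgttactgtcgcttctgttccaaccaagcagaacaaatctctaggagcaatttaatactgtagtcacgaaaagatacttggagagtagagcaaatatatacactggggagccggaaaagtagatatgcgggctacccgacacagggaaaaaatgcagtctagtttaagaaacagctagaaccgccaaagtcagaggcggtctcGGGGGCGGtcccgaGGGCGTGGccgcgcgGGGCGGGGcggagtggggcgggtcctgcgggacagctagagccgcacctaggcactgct
Gstm5: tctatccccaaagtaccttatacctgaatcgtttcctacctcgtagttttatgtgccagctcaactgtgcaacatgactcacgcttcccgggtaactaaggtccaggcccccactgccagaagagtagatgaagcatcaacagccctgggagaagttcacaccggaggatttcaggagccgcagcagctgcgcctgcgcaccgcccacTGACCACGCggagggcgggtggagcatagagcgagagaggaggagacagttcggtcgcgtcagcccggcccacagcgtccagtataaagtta
Gstm2: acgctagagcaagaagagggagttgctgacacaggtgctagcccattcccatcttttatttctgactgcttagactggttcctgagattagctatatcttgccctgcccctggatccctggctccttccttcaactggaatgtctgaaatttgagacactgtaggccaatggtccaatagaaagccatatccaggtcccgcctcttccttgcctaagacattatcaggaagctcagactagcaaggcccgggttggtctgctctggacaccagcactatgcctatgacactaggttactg

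Mgst3 held 3 matches to CCNCNCCC, starting 38, 24 and 9 bases before its start, Gstm5 held 1 match to TGACNNNGC starting 42 bases before, and Gstm2 held none of the 3 motifs. Among the 9 matched genes, 4 held CCNCNCCC in a window, 2 held TGACNNNGC (Gstm5 and Mgst1) and 0 held AGATAA. Of all 32851 promoter windows in the same table, 49.5% held CCNCNCCC, 12.4% TGACNNNGC and 11.2% AGATAA. A match describes letters only.

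Signals are given as log2 values after background correction and quantile normalization, which was done apart for arrays with 1 and 2 rounds, so levels are read only within one of these sets. A probe counted as detected at a detection p under 0.05, a value that compares its signal with negative control beads. Mgst1 shows the value of an undetected probe: it lay between 4.38 and 4.48 on every array with 1 round. Of the 10 genes, 4 were detected on all 24 arrays (Gstm5, Gstp1, Gsto1 and Mgst3), Gsta4 on 23, Gstm2 on 20, Gstm1 on 16, Gstt1 on 6, Mgst2 on 3 and Mgst1 on 0. Between 12355 and 15387 probes were detected on arrays with 1 round up to E11.5, but 8542 to 10570 on those of E12.5. Of 8 erythroid markers with a probe, all 8 were detected on every array except 1 of E7.5, where 7 were. The plot of all arrays shows the course of each gene by its brightest probe.

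**Figure D1:**
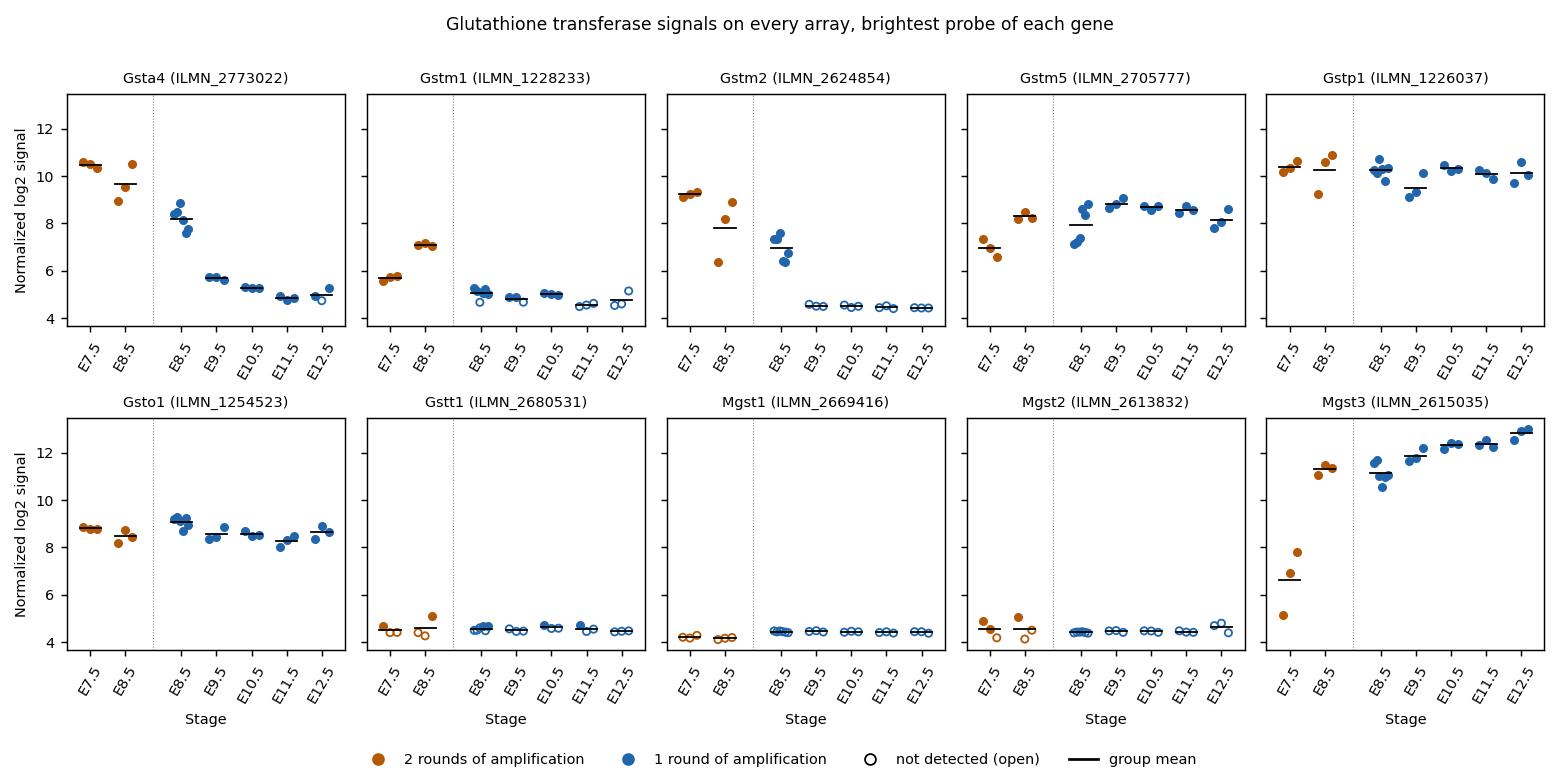
Normalized log2 signal of each of the 10 genes (y axis) by stage (x axis), 1 point per array and a black line for the group mean; orange arrays had 2 rounds of amplification, blue arrays 1 round, normalized apart, and open points were not detected. Gsta4 and Gstm2 sit lower at later stages, Mgst3 sits higher, and Gstt1, Mgst1 and Mgst2 lie near background.

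Gsta4 encodes the alpha-class enzyme best known for conjugating 4-hydroxynonenal, an aldehyde made from oxidized lipids. Its gene lies at chr9:78191966-78209349 (GRCm38.p6), and its only probe is ILMN_2773022. With 2 rounds of amplification the log2 signals were 8.96, 9.56 and 10.51 at E8.5, against 10.61, 10.496 and 10.33 at E7.5, with 1 E8.5 array inside the E7.5 range. With 1 round they ran from 7.58 over a median of 8.28 to 8.88 on the 6 E8.5 arrays, then 5.74, 5.74 and 5.61 at E9.5, 5.33, 5.28 and 5.26 at E10.5, 4.92, 4.75 and 4.86 at E11.5, and 4.94, 4.74 and 5.27 at E12.5. Each stage from E9.5 to E11.5 lay wholly below the stage before it, and E12.5 overlapped E11.5, with 1 of its 3 arrays undetected. The difference of means was -2.51 on the log2 scale for E9.5 minus E8.5, -0.41 for E10.5 minus E9.5 and -0.44 for E11.5 minus E10.5, and -3.22 for E12.5 minus E8.5. On slide 2 alone, where E9.5 and 3 of the E8.5 arrays lay, it was -2.14, and on slide 3 alone, with E12.5 and the other 3, it was -3.59. Over 24 other processing settings, left-out arrays included, the E12.5 minus E8.5 difference ran from -3.59 to -1.42. Over 18 such settings the E12.5 minus E11.5 difference, 0.14 in the main one, ran from -0.07 to 2.48.

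Gstm2, a mu-class enzyme whose gene spans chr3:107981702-107986420, has 3 probes that did not follow one course. The brightest, ILMN_2624854, read 6.37, 8.19 and 8.91 at E8.5 with 2 rounds, against 9.10, 9.26 and 9.33 at E7.5, all 3 below the E7.5 arrays. With 1 round it ran from 6.36 over a median of 7.04 to 7.59 at E8.5 and was not detected on any array of E9.5, E10.5, E11.5 or E12.5, where it lay between 4.40 and 4.59. Since an undetected value is only a bound, the normalized signal was at least 5.42-fold lower at E9.5 and at least 3.83-fold lower at E12.5 than at E8.5, each group's bound being set by the dimmest detected probes of its arrays. All bounds given here were computed with the main normalization only. Over 24 other processing settings the Gstm2 difference for E12.5 minus E8.5 ran from -2.99 to 0.83, the highest with another probe standing for the gene. Probe ILMN_1222788 took the same course at lower signals, with values of 4.95 to 5.52 at E8.5 and no detection from E9.5 on, at least 1.55-fold lower at E9.5 than at E8.5. Over the 18 arrays with 1 round, which share slides and stages, the log2 values of these 2 probes correlated at r = 0.96.

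The third Gstm2 probe, ILMN_2703921, correlated with the others at only 0.29 and 0.25. After normalization it read 5.61, 6.14 and 6.74 at E12.5, against 4.71, 4.92 and 4.46 at E11.5, with no overlap, where the other 2 probes were not detected. Its bead signals before normalization did overlap, at 45.2, 48.8 and 49.3 at E12.5 and 48.7, 54.4 and 39.6 at E11.5. Its values at E8.5 were 5.64 to 5.69 on slide 3, the slide that also holds E12.5, and 4.95 to 5.01 on slide 2. Within slide 3 the E12.5 arrays averaged 6.16 and the E8.5 arrays 5.67, and the 2 groups overlapped. The bead signals of those E8.5 arrays were 64.0, 64.0 and 58.7, above those of E12.5, so the higher E12.5 values appear only after normalization. The normalized mean over all E12.5 arrays was 0.83 above that over all E8.5 arrays on this probe, while the brightest probe was the one at least 3.83-fold lower with that normalization. Which transcripts each probe detects was not tested.

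**Figure D2:**
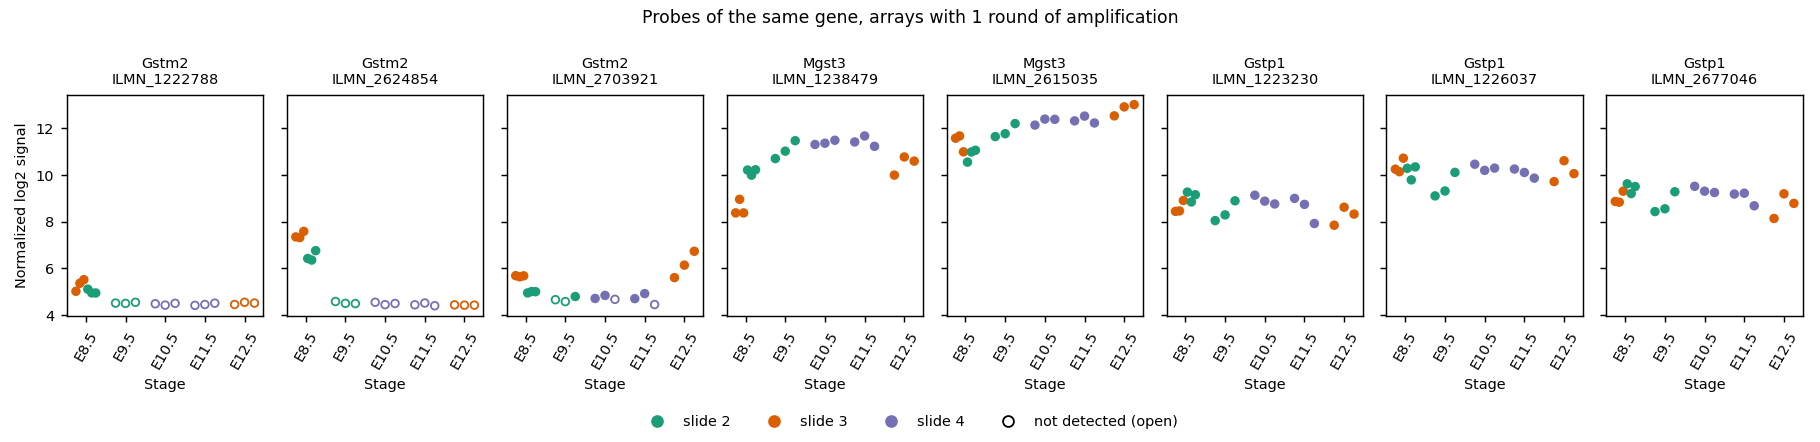
Normalized log2 signal (y axis) of every probe of Gstm2, Mgst3 and Gstp1 on the 18 arrays with 1 round by stage (x axis), 1 point per array, coloured by slide and open where not detected. Gstm2 probe ILMN_2703921 is high on both stages of slide 3, and Mgst3 probe ILMN_1238479 is low on E8.5 of slide 3. Gstp1 probes ILMN_1223230 and ILMN_2677046 run together (r = 0.96), and ILMN_1226037 follows them less closely (0.65 and 0.73).

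Mgst3, a membrane protein that reduces lipid peroxides and can make leukotriene C4, has its gene at chr1:167371966-167393841, next to the promoter printed above. Its brightest probe, ILMN_2615035, read 11.07, 11.49 and 11.37 at E8.5 with 2 rounds, against 5.14, 6.94 and 7.81 at E7.5. All 3 E8.5 arrays lay far above all 3 E7.5 arrays, a difference of 4.68 on the log2 scale, and the other probe, ILMN_1238479, gave 5.12. The array of E7.5 with the lowest Mgst3 also had the lowest summed signal of the 8 erythroid markers: the sums were 7637, 17781 and 22596 at E7.5 in the same order as the Mgst3 values, and 58716 to 78406 at E8.5. The part of erythroid content in the Mgst3 difference was not tested, and in such bulk samples fewer cells of a type and less RNA per cell cannot be told apart.

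With 1 round the brightest Mgst3 probe ran from 10.56 over a median of 11.03 to 11.68 at E8.5, then 11.65, 11.77 and 12.21 at E9.5, 12.14, 12.40 and 12.39 at E10.5, 12.32, 12.53 and 12.23 at E11.5, and 12.54, 12.92 and 13.02 at E12.5. After normalization E12.5 lay above every earlier array of this set, while neighbouring stages up to E11.5 overlapped. The bead signals before normalization were 2394, 3972 and 3324 at E12.5, below the 6087, 7052 and 5775 of E11.5. They overlapped the E8.5 arrays of slide 3, at 3293, 3666 and 2082, so the top rank of E12.5 appears only after normalization. Fewer probes were detected on the E12.5 arrays than on the others with 1 round, so bead signals alone cannot rank the stages. Over 18 other processing settings, other normalizations included, the Mgst3 difference for E12.5 minus E11.5 stayed positive, at 0.31 or more. The difference was 1.68 for E12.5 minus E8.5 over all arrays and 1.41 within slide 3. Over 24 other processing settings it ran from 1.36 to 3.21. The 2 probes parted at E12.5. ILMN_1238479 read 10.001, 10.78 and 10.60 at E12.5, against 11.42, 11.68 and 11.23 at E11.5, a difference of -0.98, where the brightest probe gave 0.47.

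The slides differ in the same way for that Mgst3 probe. ILMN_1238479 averaged 8.57 on the E8.5 arrays of slide 3 and 10.15 on those of slide 2, a difference of -1.57 between arrays of one stage, and ILMN_2615035 gave 0.55 in the same comparison. E12.5 shares slide 3, where ILMN_1238479 was 1.88 higher at E12.5 than at E8.5. Over all arrays with 1 round that probe was 1.10 higher at E12.5, with groups that overlapped. Gaps of this size between the E8.5 slides were uncommon: 3.75% of 17408 probes differed by more than 1 log2 unit. Over the 18 arrays the 2 Mgst3 probes correlated at r = 0.54.

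Gstm1 and Gstm5, mu-class enzymes from the same cluster as Gstm2, were both higher at E8.5 than at E7.5 with 2 rounds. Gstm1 (chr3:108012250-108017973, probe ILMN_1228233) read 7.09, 7.15 and 7.07 at E8.5, against 5.58, 5.73 and 5.76 at E7.5. Its groups did not overlap, and it rose by 1.41 ± 0.22 on the log2 scale (limma's estimate and SE, adjusted p = 0.00903). Gstm5 (chr3:107895854-107898685, probe ILMN_2705777) read 8.17, 8.47 and 8.24 at E8.5, against 7.32, 6.98 and 6.59 at E7.5, again with no overlap, and rose by 1.33 ± 0.25 (limma, adjusted p = 0.0185). So 2 of the 5 members tested with 2 rounds passed the threshold, both higher, where 12.51% of all 11716 genes and unnamed probes were called and 5.97% were called higher. The authors' processed values gave smaller differences, 0.46 for Gstm1 and 0.71 for Gstm5, both still called. Without E7.5 replicate 2 neither passed (adjusted p = 0.0829 for Gstm1 and 0.1002 for Gstm5 in limma), and without E8.5 replicate 2 Gstm5 did not (0.0731).

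In the same 6 arrays Gstp1, Gsto1 and Mgst2 were tested and not called. Gsto1 read 8.19, 8.76 and 8.46 at E8.5, against 8.87, 8.79 and 8.78 at E7.5, with no overlap and a difference of -0.34 ± 0.20 (limma, adjusted p = 0.343). Groups that do not overlap occurred for 30.9% of all features in this comparison. Gstp1 spread from 9.23 to 10.91 at E8.5 and from 10.17 to 10.65 at E7.5, a difference of -0.14 ± 0.42. Mgst2, which like Mgst3 can make leukotriene C4, was detected on 1 of 3 arrays of E8.5 and 2 of 3 of E7.5, with a difference of 0.01 ± 0.26.

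With 1 round Gstm5 ran from 7.12 over a median of 7.88 to 8.83 at E8.5, then 8.65, 8.81 and 9.07 at E9.5, 8.75, 8.57 and 8.72 at E10.5, 8.44, 8.75 and 8.56 at E11.5, and 7.82, 8.04 and 8.60 at E12.5. It stayed detected at every stage at which Gstm2's brightest probe was not. Over all arrays Gstm5 was 0.92 ± 0.31 higher at E9.5 than at E8.5 (limma, adjusted p = 0.0408), but the E8.5 arrays fell into 2 sets by slide, 7.12 to 7.40 on slide 3 and 8.35 to 8.83 on slide 2. Within slide 2, E9.5 averaged 8.84 and E8.5 8.60, groups that overlapped, and with slide as a fixed block the difference was 0.24 (limma, adjusted p = 0.536). For E12.5 minus E8.5 the same gap turned the result: 0.23 ± 0.31 over all arrays (limma, adjusted p = 0.514), 0.91 with slide as a fixed block (adjusted p = 0.000212), and -0.45 with the replicate number as a block (adjusted p = 0.0313), a fit in which E12.5 is set against the slide 2 arrays of E8.5. Before normalization the bead signals on slide 3 went the other way, at 114, 115 and 126 at E12.5 and 155, 172 and 171 at E8.5.

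Gstm1 stayed close to background with 1 round, detected on 10 of 18 arrays, at 4.67 to 5.28 at E8.5, 4.68 to 4.89 at E9.5, 4.98 to 5.06 at E10.5, 4.49 to 4.63 at E11.5 and 4.54 to 5.15 at E12.5. It was detected on all 3 arrays of E10.5 and on none of E11.5 or E12.5. Its signal was at least 1.38-fold lower at E11.5 than at E10.5, with a limma adjusted p of 0.0564 that was 0.00409 within slide 4, which holds both stages. For E12.5 against E8.5 it was at least 1.03-fold lower (adjusted p = 0.0460; 0.124 with slide as a fixed block). That call was lost without any 1 of E8.5 replicates 1 to 5 or of E12.5 replicates 1 and 2 (adjusted p from 0.0514 to 0.249), and the sign turned with median scaling, at 1.86. Its second probe, ILMN_2626492, was detected on no array. Gstm6, from the same cluster, is treated with the other transferases below.

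Gstp1, the pi-class enzyme that is abundant in many cell types, and Gsto1, the omega-class enzyme that reduces dehydroascorbate, were detected on every array. Gstp1 (chr19:4035411-4037912, brightest probe ILMN_1226037) ran from 9.80 over a median of 10.27 to 10.73 at E8.5, then 9.11, 9.32 and 10.12 at E9.5, 10.47, 10.20 and 10.30 at E10.5, 10.26, 10.11 and 9.87 at E11.5, and 9.72, 10.62 and 10.06 at E12.5. It was lower at E9.5 than at E8.5 over all arrays, a log2 change of -0.75 ± 0.23 (limma, adjusted p = 0.0258), although 1 E9.5 array lay inside the E8.5 range. In a fit of every probe, its 2 others gave -0.44 ± 0.25 and -0.47 ± 0.24 and were not called (adjusted p = 0.272 and 0.206), and within slide 2 the brightest probe gave -0.63 (fixed block, adjusted p = 0.108). All 3 E10.5 arrays of the brightest probe lay above the E9.5 arrays, a difference of 0.81 ± 0.27 that did not pass (adjusted p = 0.139). Without E9.5 replicate 3, the array near the E8.5 level, it did (1.11, adjusted p = 0.0230). For E12.5 minus E8.5 the limma fit of every probe gave -0.13 for the brightest probe (adjusted p = 0.638). It gave -0.58 ± 0.25 for ILMN_1223230, which was called (0.0440), and -0.52 ± 0.24 for ILMN_2677046 (0.0597).

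One Gstp1 probe read the 2 amplification schemes differently. ILMN_2677046 was detected on none of the 6 arrays with 2 rounds, at 4.13 to 4.42, and on all 18 with 1 round, at 8.14 to 9.63, while the other 2 probes were detected in both sets. These levels come from sets normalized apart. Gstp1 has a near-identical neighbour, Gstp2, and the probes' match to it was not tested.

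Gsto1 (chr19:47854973-47864790, probe ILMN_1254523) ran from 8.69 over a median of 9.15 to 9.28 at E8.5, then 8.35, 8.45 and 8.84 at E9.5, 8.68, 8.503 and 8.51 at E10.5, 8.01, 8.30 and 8.49 at E11.5, and 8.34, 8.90 and 8.67 at E12.5. Only the lowest E8.5 array reached into the later ranges. It was lower at E9.5 than at E8.5 by a log2 change of -0.53 ± 0.18 (limma, adjusted p = 0.0428), which did not pass with slide as a fixed block (-0.43, adjusted p = 0.156). It was also lower at E12.5 than at E8.5, by -0.45 ± 0.18 over all arrays (adjusted p = 0.0328) and -0.56 with slide as a fixed block (adjusted p = 0.0121). That call was lost without E8.5 replicate 2, 4 or 5 or without E12.5 replicate 1 or 3, with adjusted p between 0.0509 and 0.180.

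**Figure D3:**
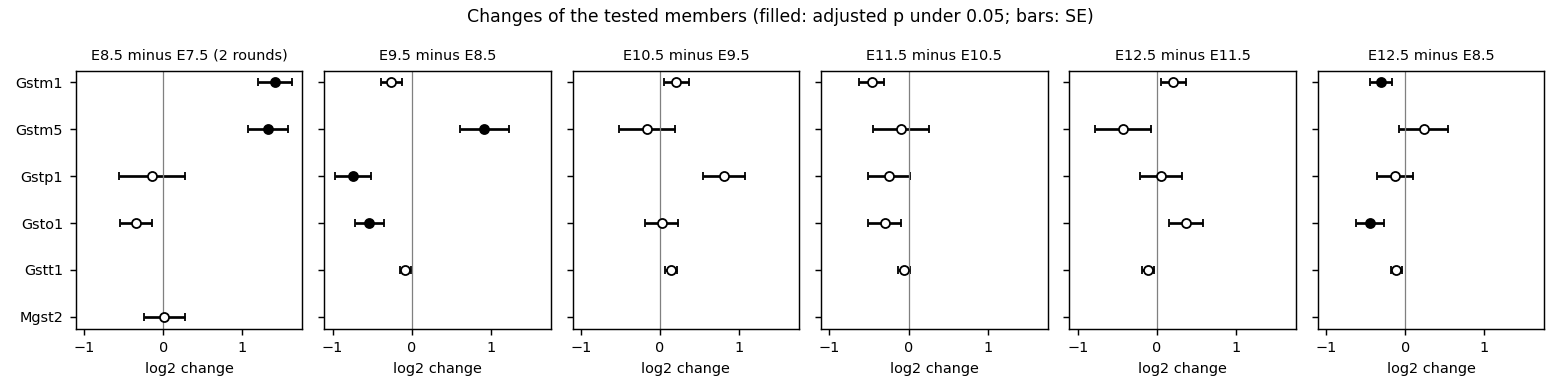
Log2 change (x axis) of each tested member in 6 comparisons, later minus earlier stage, with bars for limma's SE; filled points had an adjusted p under 0.05 over all features. Gstm1 and Gstm5 are filled to the right at E8.5 minus E7.5, and the calls at E9.5 minus E8.5 are those lost when slide is a block.

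Across the 5 members tested with 1 round, 3 were called for E9.5 minus E8.5 (Gstm5 higher, Gstp1 and Gsto1 lower), where 18.5% of 13816 features were called. All 3 calls were lost with slide as a random or fixed block, within slide 2 alone, without E9.5 replicate 1, E9.5 replicate 2 or E8.5 replicate 6, and with E9.5 replicates 1 and 2, which share a description in the labels, averaged. Members called numbered 0 for E10.5 minus E9.5 (background 1.93%), 0 for E11.5 minus E10.5 (11.1%) and 0 for E12.5 minus E11.5 (48.7%). At an unadjusted p under 0.05 in limma, Gstp1 passed in the first of these, Gstm1 in the second and 0 in the last. For E12.5 minus E8.5, 2 were called, Gstm1 and Gsto1, both lower, against 69.3% of all features called and 34.7% called lower. Of these, Gstm1 was detected on 0 of the E12.5 arrays, so its call is a difference against background. Called higher and lower were 5.97% and 6.54% of features for E8.5 minus E7.5, 8.41% and 10.1% for E9.5 minus E8.5, 1.2% and 0.724% for E10.5 minus E9.5, 5.43% and 5.7% for E11.5 minus E10.5, and 25.6% and 23.1% for E12.5 minus E11.5. Groups did not overlap for 19.4% of features between E9.5 and E8.5, 29.7% between E10.5 and E9.5, 41.6% between E11.5 and E10.5, 54.6% between E12.5 and E11.5 and 57.5% between E12.5 and E8.5. The members' median changes were -0.26 for E9.5 minus E8.5 and -0.13 for E12.5 minus E8.5, and those of all features were -0.02 in both. A limma F test over the 5 stages called 4 of the 5 (Gsto1, adjusted p = 0.00347; Gstm1, 0.0131; Gstm5, 0.0449; Gstp1, 0.0465), against 74.8% of all features, and Gstt1 did not pass (0.239). Gstm1 was undetected at E11.5 as well as E12.5, so its F call also sets detected stages against background.

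The span between the highest and lowest stage mean with 1 round was 3.36 for Gsta4, 1.68 for Mgst3, 0.92 for Gstm5, 0.82 for Gsto1 and 0.81 for Gstp1. Gstm2 and Gstm1 have no such span, since the lowest stages of both were not detected. Gstt1, a theta-class enzyme, was detected on 4 of 18 arrays, never at E9.5 or E12.5. Mgst1, an enzyme of the endoplasmic reticulum and the mitochondrial outer membrane, was detected on no array, and Mgst2 on none with 1 round. An undetected probe bounds a level and does not show that the gene is silent.

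Markers of other cell types moved with some of these results. The summed linear signal of 11 visceral endoderm markers, among them Afp, Ttr and Apoa1, was 346 to 1054 at E8.5 with 1 round, 261 to 342 at E9.5, 257 to 270 at E10.5, 250 to 251 at E11.5 and 250 to 270 at E12.5. E11.5 arrays with 0 of these markers detected still summed to 250, so sums near that value are background. Of these markers 7 to 11 were detected on the E8.5 arrays and 0 to 1 on those of E11.5 and E12.5. At E9.5, 8 of 9 tested were called lower than at E8.5, against 10.1% of all features. Gsta4 and Gstm2 were lower over the same interval. Among arrays with 2 rounds the sums were 4183, 2292 and 1415 at E8.5, on arrays with 8.96, 9.56 and 10.51 for Gsta4, against 792, 660 and 566 at E7.5, on arrays with 10.61, 10.496 and 10.33. The 3 E8.5 arrays read 6.37, 8.19 and 8.91 for Gstm2 in the same order. Among these 3 arrays Gsta4 and Gstm2 were lower where the sum was higher. Among the 3 of E7.5 Gsta4 was higher where the sum was higher, while Gstm2 was lower, at 9.10, 9.26 and 9.33 in the order of the sums. The E8.5 arrays with 1 round are read by slide, since their Gsta4 means differed by 0.74 between slides. On slide 3 the sums 1054, 627 and 386 went with 8.39, 8.46 and 8.88 for Gsta4. On slide 2 the sums 1036, 523 and 346 went with 7.58, 7.77 and 8.16. So Gsta4 was lower where the sum was higher within each slide. Gstm2 read 7.35, 7.32 and 7.59 on slide 3 and 6.36, 6.76 and 6.43 on slide 2, which did not follow the sums.

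The macrophage list, with 6 probed genes, also moved between E7.5 and E8.5. Its sum was 503 to 1023 at E8.5 and 3671 to 5075 at E7.5, with 1 to 2 and 2 genes detected. Laptm5 carried most of it, at a mean of 9.23 at E8.5 and 12.04 at E7.5. Spi1 was detected on 0 of 3 arrays of E8.5 and 3 of 3 of E7.5. Both tested genes of the list, Laptm5 and Spi1, were called lower at E8.5, against 6.54% of all features. Fcer1g, Lyz2 and Ptprc were detected on no array of either stage. With 1 round the list's sum was 137 to 152 at E9.5 and 161 to 232 at E8.5. The E12.5 arrays, with 0 of its genes detected, still summed to 135 to 141, so sums near these are background. Between E9.5 and E8.5, 1 of 2 tested genes was called lower, against 10.1% of all features. This was Laptm5, at a mean of 4.96 at E9.5 and 6.47 at E8.5. The endothelial sum lay between 935 and 1591 at E8.5 with 2 rounds and between 2283 and 2508 at E7.5. With 1 round it was 1459 to 2234 at E9.5 and 1050 to 1384 at E8.5. Of 8 tested genes, 2 were called higher, Kdr and Emcn, and 2 lower, Pecam1 and Egfl7, against 8.41% and 10.1% of all features. Pecam1 averaged 4.57 at E9.5 and 6.001 at E8.5, and Egfl7 7.92 at E9.5 and 9.18 at E8.5. For E12.5 minus E8.5, 2 of the 8 were called higher and 5 lower, against 34.6% and 34.7% of all features. Other sums rose with 1 round. The mesenchyme sum was 1813 to 2633 at E9.5 and 369 to 788 at E8.5, with Prrx1 at means of 10.95 and 8.62. The megakaryocyte sum was 1119 to 1694 at E12.5 and 185 to 235 at E8.5, with Vwf at means of 10.11 and 5.58. The part of these cells in the Gsta4 and Gstm2 values was not tested.

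For each of the 3 genes that chose the list, the 5 named genes with the most similar course were found among 4810 genes whose stage means spanned at least 1 log2 unit, by Pearson's r over the 18 arrays with 1 round, which share slides and stages. Gsta4 ran closest to Pcyox1l (r = 0.99), Slc1a3, a glutamate transporter (0.99), Arrdc4 (0.98), Tspan6 (0.98) and Smco4 (0.98). Gstm2 ran closest to Arhgap45 (0.99), Fscn1, an actin-bundling protein (0.98), Serpinb6a (0.98), Slc1a3 again (0.98) and Atp2a3, a calcium pump (0.98). All of these were lower at E12.5 than at E8.5, which follows from picking them by r. Mgst3 ran closest to Gstz1 (r = 0.98), then Zfp524 (0.96), Urod, an enzyme of heme synthesis (0.95), Olfr543 (0.95) and Pheta2 (0.95). These were all higher at E12.5 than at E8.5, which follows from the same choice.

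Gstz1, the zeta-class enzyme of tyrosine breakdown, belonged to a list of 20 other transferases and membrane relatives, of which 18 had a probe and 8 were tested with 1 round. For E12.5 minus E8.5, 4 of the 8 were called higher and 1 lower, where 34.6% of all features were called higher and 34.7% lower. Gstz1 averaged 9.10 at E12.5 and 6.74 at E8.5, a rise of 2.36 ± 0.21 (limma, adjusted p = 1.41e-09). Gstk1, a kappa-class enzyme of mitochondria and peroxisomes, rose by 1.59 ± 0.17 (0.98 with cyclic loess), and Gsta2 by 1.03 ± 0.14, a call lost with cyclic loess (0.08, adjusted p = 0.740 in limma). Gstcd, named after its value was seen as the one that fell, changed by -0.50 ± 0.13, was detected on 0 of 3 E12.5 arrays, and gave 1.84 with median scaling. The list's counts were 8 higher and 0 lower with median scaling and 2 higher and 0 lower with cyclic loess. Gstm6 was called lower at E12.5 than at E11.5, at -0.51 ± 0.16 (limma, adjusted p = 0.00912), and was detected on 0 of the 3 E12.5 arrays, so this is a measured difference against background. It gave 1.84 with median scaling, and the call was lost with cyclic loess (-0.14, adjusted p = 0.629 in limma). For E9.5 minus E8.5 Gstz1 rose by 0.97 ± 0.21, Gstk1 by 0.93 ± 0.17 and Gstcd by 0.41 ± 0.13. These were 3 calls among the 8, where 8.41% of all features were called higher. With slide as a fixed block 2 of the 8 were called higher. With 2 rounds, Ltc4s, the main leukotriene C4 synthase, was lower at E8.5 by -0.84 ± 0.14 (limma, adjusted p = 0.0113). It was the only one called of 7, where 6.54% of all features were called lower.

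Of 8 genes tested in the list of glutathione synthesis and breakdown, 5 were called higher and 2 lower for E12.5 minus E8.5, where 34.6% of all features were called higher and 34.7% lower. With cyclic loess 2 were higher and 2 lower, and with median scaling 7 were higher. Gclm, the modifier subunit of glutamate-cysteine ligase, averaged 11.43 at E12.5 and 8.37 at E8.5 and rose by 3.07 ± 0.22 (limma, adjusted p = 7.26e-11). It was also 1.52 ± 0.26 higher at E8.5 than at E7.5 with 2 rounds (adjusted p = 0.0126). Slc7a11, part of the cystine importer, rose by 1.39 ± 0.14 for E12.5 minus E8.5, a call lost with cyclic loess (0.17, adjusted p = 0.347 in limma). Ggct, which breaks down gamma-glutamyl peptides, changed by -1.73 ± 0.15 (0.10 with median scaling, -0.83 with cyclic loess), was detected on 1 of 3 E12.5 arrays, and was called lower at E10.5 than at E9.5 and at E11.5 than at E10.5.

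Among 10 tested genes of glutathione reduction and glutathione-dependent enzymes, 7 were called higher and 2 lower for E12.5 minus E8.5, against 34.6% and 34.7% of all features. Esd, which cleaves S-formylglutathione, averaged 12.999 at E12.5 and 10.24 at E8.5 and rose by 2.76 ± 0.19 (limma, adjusted p = 2.12e-11). Glrx2, a mitochondrial glutaredoxin, rose by 1.89 ± 0.24, and Glrx3, a glutaredoxin that handles iron-sulfur clusters, changed by -1.78 ± 0.24. The Glrx3 call was lost with median scaling (-0.03, adjusted p = 0.899 in limma) and with cyclic loess (-0.57, adjusted p = 0.0884). With 2 rounds, 3 of 11 were called higher and 1 lower at E8.5 than at E7.5, against 5.97% and 6.54% of all features. Gpx1, a glutathione peroxidase, led those called higher, at 1.84 ± 0.13 (limma, adjusted p = 0.00125), and Gpx8 was the one called lower, at -0.98.

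Of 4 tested exporters, 2 were called higher and 1 lower for E12.5 minus E8.5, against 34.6% and 34.7% of all features. Abcc5 rose by 2.91 ± 0.28 and Abcc2, a pump for glutathione conjugates, by 1.22 ± 0.14. Abcc1, detected on 0 of 3 E12.5 arrays, changed by -0.19 ± 0.07 (2.28 with median scaling). The Abcc2 call was lost with cyclic loess (0.04, adjusted p = 0.863 in limma). The list of CNC and small MAF factors holds regulators that bind TGACNNNGC and some of their targets, and 6 of its 9 tested genes were called higher for E12.5 minus E8.5, against 34.6% of all features. Hmox1, which breaks down heme, averaged 10.78 at E12.5 and 5.64 at E11.5, a rise of 5.14 ± 0.32 (limma, adjusted p = 1.61e-10). Bach1, a heme-sensing repressor, rose by 2.86 ± 0.25 in the same comparison (1.58 with cyclic loess). Nqo1, a quinone reductase, averaged 7.60 at E12.5 and 6.93 at E11.5 (limma, adjusted p = 0.00147), with a difference that turned to -1.26 with cyclic loess. The stages E12.5 and E11.5 lie on different slides, and the list gave 5 higher and 1 lower for E12.5 minus E8.5 both within slide 3 and with slide as a fixed block.

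**Figure D4:**
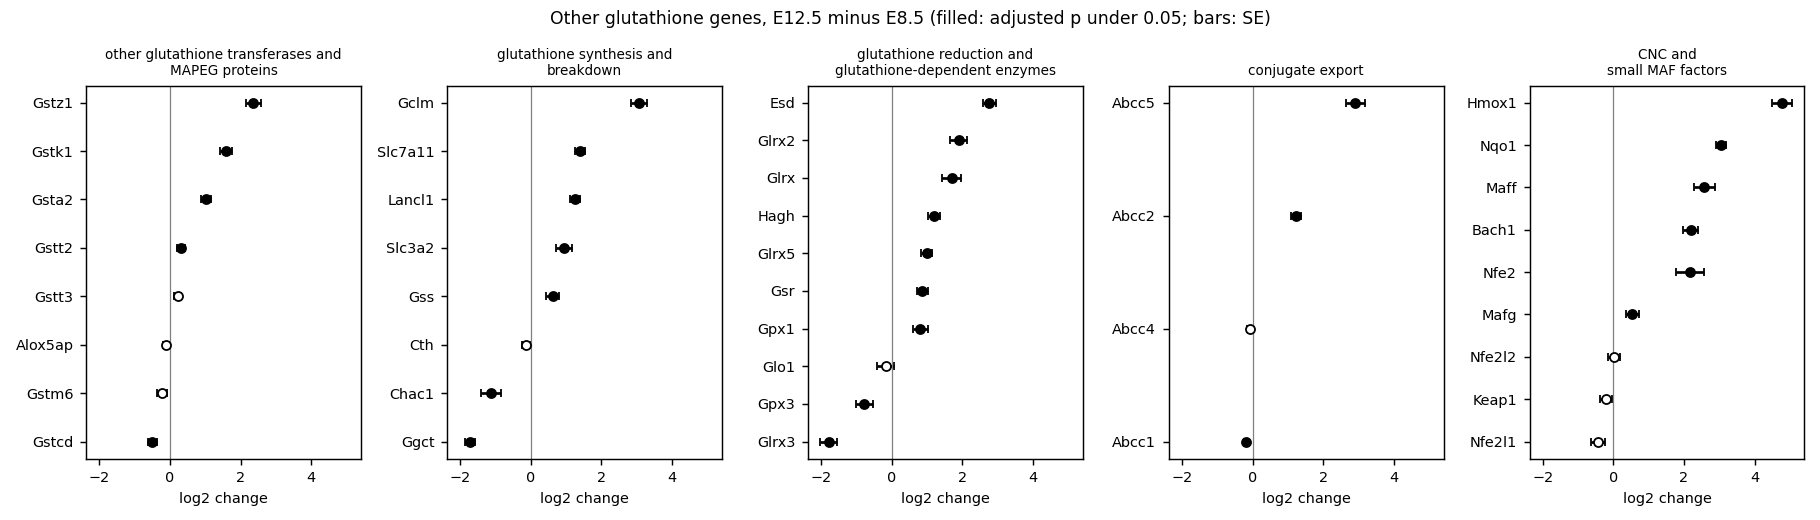
Log2 change for E12.5 minus E8.5 (x axis) of every tested gene in 5 lists, with bars for limma's SE and filled points where the adjusted p was under 0.05. Gstz1, Gclm, Esd, Abcc5 and Hmox1 are the highest of their lists, and Gstcd, Ggct and Glrx3 the lowest of theirs.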

How the data were processed

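Signals were deposited as intensity values, 1 mean bead signal per probe and array, which the file headers call non-normalized. Compared at 5 quantiles, the signals of arrays on slide 2 lay within 0.305% of each other and on slide 4 within 0.404%, against 18.8% on slide 1 and 122% on slide 3. A detection p-value per probe and array was deposited with them, per the file headers. The authors' processed values look like log2 values: each array's order of probes equals that of its signals, column medians are 5.90 with 1 round and 7.21 with 2, the base of the log and any centring are unknown. The annotation gives 1 symbol for 29490 probes, several for 8 and none for 16221. The build used by the authors is not given in the sources used here, and coordinates are RefSeq's on GRCm38.p6, by gene ID.

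Log2 values were made with neqc of limma 3.58.1 in R 4.3.3 (offset 16), apart for 18 arrays with 1 round and 6 with 2. Probes detected on at least 3 arrays of a fit were tested, with 1 probe per gene (highest mean). Limma's moderated tests used an intensity trend and Benjamini-Hochberg adjustment over all features, called at 0.05. One fit held E8.5 to E12.5, so comparisons share its spread and E8.5 samples. Of the 7 members open to a test, 5 passed the filter in each set and 6 in at least 1, Mgst1 passing in neither. The members and gene lists were chosen with earlier results of these data known. Named from each list were up to 3 called genes per comparison by smallest p, of which part is printed. The scripts were tested on simulated data. Same-numbered replicates' deviations correlated between -0.14 and 0.15, and no comparison had every pair over 0.1, so the numbers were not taken as pairs. No 2 arrays held identical columns, the highest correlation being 0.993. By their titles the E8.5 arrays were used as 6 samples, although their descriptions repeat 3 numbers. The array's number limits precision, with no read depth to give. Figures were drawn with matplotlib 3.10.9 in Python 3.11.15. Alternatives were other background correction, scaling, filters, weights, blocks and left-out arrays.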

Additional observations from a re-analysis of the deposited data

How the results depend on the processing

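Each change was recomputed under other settings. For the 6 tested members, 497 recomputed values stayed on their side of the threshold, 64 lost their call, 20 gained one and 5 turned round. A turn was counted only where the main or the other setting gave a call. Uncalled values that changed sign are among the 497, as for Gstp1 at E8.5 minus E7.5, which ran from -0.47 to 0.36. Median scaling moved the median change of all features by 2.12 for E12.5 minus E11.5 and 1.93 for E12.5 minus E8.5, where the main setting gave -0.02, and by -0.25 for E9.5 minus E8.5. Under it Gstt1 gave 2.79 and 2.34 and Gstm1 1.86 in these comparisons, Gstcd gave 2.40 and 1.84, Gstm6 1.84 and Glrx3 1.19 for E12.5 minus E11.5, and Abcc1 2.28, Chac1 1.20, Gpx3 1.34 and Ggct 0.10 for E12.5 minus E8.5, all opposite to the main sign. Cyclic loess turned Gstp1 to 0.75 for E12.5 minus E8.5, and Nqo1 to -1.26, Gstcd to 0.23, Hagh to -0.15 and Glrx3 to 0.41 for E12.5 minus E11.5. The replicate block gave Gstm5 -0.45, and averaging E8.5 arrays of one description gave Gstm2 0.83, since another probe then represents the gene. The cause of the other turns was not tested.

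Members called for E9.5 minus E8.5 (3) numbered 5 with median scaling and 0 with no filter, the replicate block, only the 2 groups, slide as a random or fixed block, slide 2 alone, or E9.5 replicates 1 and 2 averaged. For E12.5 minus E8.5 (2) they were 1 with normexp at an offset of 50, cyclic loess, no filter, array weights or averaged E8.5 arrays, and 0 with only the 2 groups. For E11.5 minus E10.5 (0) they were 1 with median scaling, cyclic loess, the authors' values, the replicate block, only the 2 groups, slide as a random block or slide 4 alone, and 2 with array weights. For E12.5 minus E11.5 (0) they were 2 with median scaling and 1 with cyclic loess, no filter or array weights. They were 1 for E10.5 minus E9.5 (0) with array weights, and 1 for E8.5 minus E7.5 (2) with no filter. Leaving out each array in turn gave 0 to 2 for E8.5 minus E7.5, 0 to 3 for E9.5 minus E8.5, 0 to 1 for E10.5 minus E9.5, 0 to 0 for E11.5 minus E10.5 and E12.5 minus E11.5, and 0 to 2 for E12.5 minus E8.5.

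Over all features, calls for E9.5 minus E8.5 were 2553, 45.5% of them higher, and 4294 (24.5%) with median scaling. For E12.5 minus E11.5 they were 6726 (52.6%), 11849 (93.5%) with median scaling and 2954 with cyclic loess, and for E12.5 minus E8.5 9581 (49.9%), 12422 (86.5%) with median scaling and 4176 with cyclic loess. For E10.5 minus E9.5 they were 266 (62.4%), against 493 (44.4%) with median scaling, 627 with cyclic loess, 160 with no filter, 2700 (48.6%) with array weights, 622 (51%) with the replicate block, 829 with only the 2 groups, 20 with slide as a random block and 77 with E9.5 replicates averaged. For E11.5 minus E10.5 they were 1537 (48.8%), against 2141 (36.7%) with median scaling, 2432 with cyclic loess, 1012 with no filter, 4495 with array weights, 2357 with the replicate block and 3872 with only the 2 groups or slide 4 alone. For E8.5 minus E7.5 they were 1466, against 824 with no filter and 2326 with array weights. Signal over background limits Gstm1, Gstt1, Mgst1 and Mgst2, and 3 arrays per stage limit precision.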
